A study of Homo sapiens with 9 samples.

Results

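LN229 is an established human glioblastoma line, grown from a malignant brain tumour of glial type. The untreated cells of a formate experiment, collected at 0 h, are described here as a baseline transcriptome: 3 of the 9 libraries of the series, chosen by their label, with 23727 genes in the count table. Per the labels, the base medium lacked glucose and glutamine, which were added back to 17 mM and 2 mM together with serum at 10% (fetal bovine), and the untreated dishes received no sodium formate before RNA was taken. Total RNA came straight from the dishes and went into a stranded mRNA library kit, with a required integrity number above 9 per the labels. The source label spells the line LN299, while the growth protocol and the series title spell it LN229. The libraries come from one line in culture, without the immune, vascular and normal glial cells of a tumour. No label says whether the 3 libraries came from separate cultures, so their spread may be technical.

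Glioblastoma cells divide, migrate through brain matrix and often carry losses of the cell-cycle inhibitors CDKN2A and CDKN2B and silencing of the repair enzyme MGMT. Tumours are commonly sorted by whether their transcripts resemble neural progenitors, oligodendrocyte precursors, astrocytes or mesenchymal cells. A line kept in serum can hold traits of several of these states, so the defining genes of each were read alongside those of cell types that a pure culture should lack.

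The libraries held 23076454, 25848242 and 22222298 counts for replicates 1, 2 and 3. Levels are in CPM, which puts the libraries on the same total after TMM scaling among these 3 alone, and are given as mean ± SD over the 3. CPM grows with transcript length, so an order of different genes by CPM is an order of their counts. Levels per length are given as TPM, in which each count is divided by the gene's exon length and each library rescaled to the same total. A gene with 0 counts in all 3 libraries is termed silent at this depth, and 3 counts over the 71146994 counts of the group correspond to 0.0422 CPM, the upper limit that a count of 0 allows. That limit covers counting error only.

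Replicate 1 stood apart from replicates 2 and 3. Between replicates 2 and 3, 4 of the 13161 genes at or above 1 CPM differed by more than 2-fold, whereas 195 did so between replicates 1 and 2 and 215 between replicates 1 and 3. The common biological coefficient of variation, the spread beyond counting error, was 0.173 over all 3 libraries and 0.0678 without replicate 1. The difference moved with transcript length: among 9636 genes of at least 10 CPM, the median log2 ratio of replicate 1 to the mean of the other two was 0.40 in the fifth with the shortest transcripts and -0.31 in the fifth with the longest. It also moved with base composition, from -0.21 in the fifth with the lowest GC to 0.21 in the fifth with the highest. Between replicates 2 and 3 the corresponding medians ran from 0.08 to 0.01 over length. The cause was not tested. Values are given per library for many genes, but a mean given alone can also hide a shift of replicate 1. IRAK1, for example, had 737.9, 491.2 and 496.1 CPM in replicates 1 to 3, and MMP16 had 195.1, 334.0 and 336.9 CPM.

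**Figure D1:**
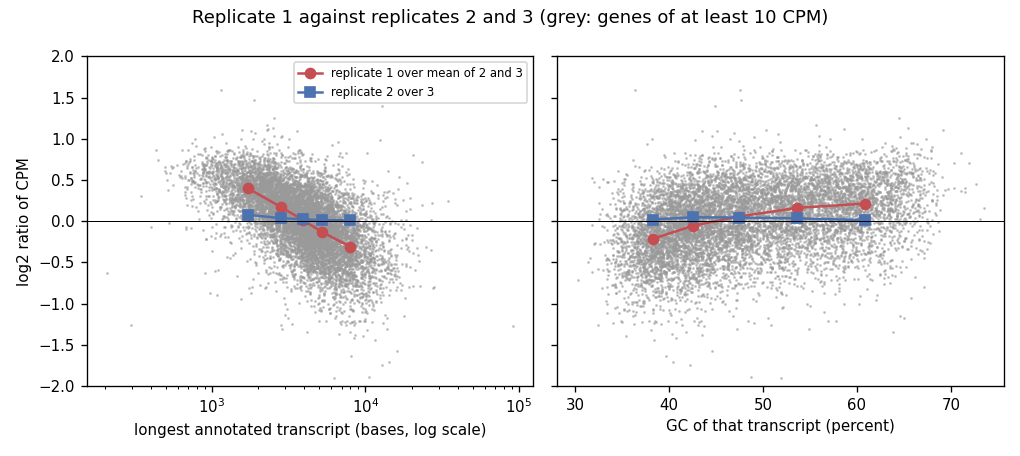
Log2 ratio of CPM (vertical axis) against the length of the longest annotated transcript in bases (left) and its GC in percent (right) for genes of at least 10 CPM. Grey points are genes, red circles the medians of replicate 1 over replicates 2 and 3 in groups of equal size, and blue squares those of replicate 2 over 3. The red medians fall from 0.40 to -0.31 with length, and the blue ones stay between 0.08 and 0.01.

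Of the 23727 genes, 1239 (5.22%) were silent and 13161 (55.5%) reached 1 CPM. A further 4191 genes had a trace under 0.1 CPM and 5136 lay between 0.1 and 1 CPM, and these classes, 9327 genes together, held 0.0206% and 0.185% of the counts. Between 10 and 100 CPM there were 7242 genes with 30.1% of the counts, between 100 and 1000 CPM 2323 genes with 54.0%, and above that 75 genes with 14.2%. The most abundant 38 genes held 10% of all counts, 1057 held 50% and 5865 held 90%. Without replicate 1, 13276 genes reached 1 CPM and 1103 genes held 50% of the counts. Protein-coding genes made up 98.7% of the counts and all 75 genes of at least 1000 CPM, while of 5291 long noncoding genes 1023 reached 1 CPM. The table held 15224 of the 19951 protein-coding genes of the annotation, and the other 4727 have no row and are not counted as silent. Of the 15224, 77.5% reached 1 CPM, 9421 genes reached 10 CPM and 15.6% reached 100 CPM. Counts of list members given below are to be read beside these shares.

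**Figure D2:**
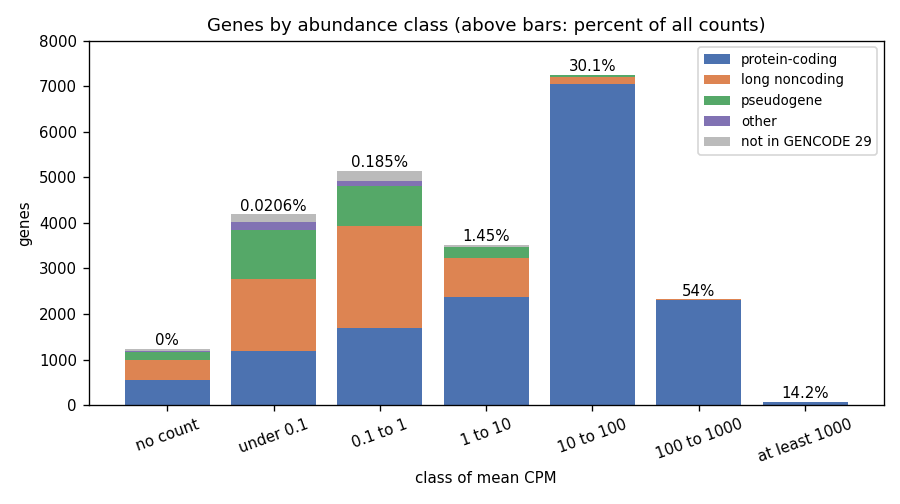
Number of genes (vertical axis) in each class of mean CPM over the 3 untreated libraries (horizontal axis), stacked by gene type, with the percent of all counts above each bar. The class from 10 to 100 CPM is the fullest with 7242 genes, 7039 of them protein-coding, and the class from 100 to 1000 CPM holds the most counts, 54.0%.

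The top of the ranking by CPM was made of glycolytic enzymes, cytoskeleton, matrix and chaperones. GAPDH, a glycolytic dehydrogenase, led with 9202, 7495 and 6503 CPM in replicates 1 to 3 (7733 ± 1359). ACTB, cytoplasmic beta-actin, followed with 8273, 5917 and 5463 CPM. Both were highest in replicate 1. FN1, the matrix protein fibronectin, had 5235, 4489 and 5722 CPM, and was highest in replicate 3. VIM, the mesenchymal intermediate filament vimentin, had 6092, 4214 and 4079 CPM, with replicate 1 again above the rest. The remaining genes of the first 30 ran from 4275 CPM for PKM, the pyruvate kinase, down to 1754 CPM for LGALS1, the secreted lectin galectin-1. They included ACTG1, TUBB, TUBA1B, FLNA and CFL1 of the cytoskeleton, HSP90AA1, HSPA8, HSP90AB1, HSP90B1 and P4HB among chaperones and folding enzymes, EEF1A1, EEF2 and EIF4G2 of translation, and SPARC and THBS1 of the matrix. Without replicate 1, 28 of the 30 were again among the first 30.

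Per length the order changed. By TPM the leading genes were GAPDH at 10819, ACTB at 7737, LGALS1 at 6634 and MT-CO3 at 6588, and 15 of the 30 genes leading by CPM were also among the first 30 by TPM. Short transcripts entered: TMSB10, an actin-binding peptide, at 5847 TPM, S100A6, a calcium-binding protein, at 5484 TPM, and FTL, the ferritin light chain, at 3241 TPM. FN1, a long transcript, stood at 1252 TPM. GAPDH has 62 annotated pseudogene copies, ACTG1 20, FTL 16 and ACTB 10, and reads shared with them could have been split or dropped by the counting, so their levels are uncertain.

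**Figure D3:**
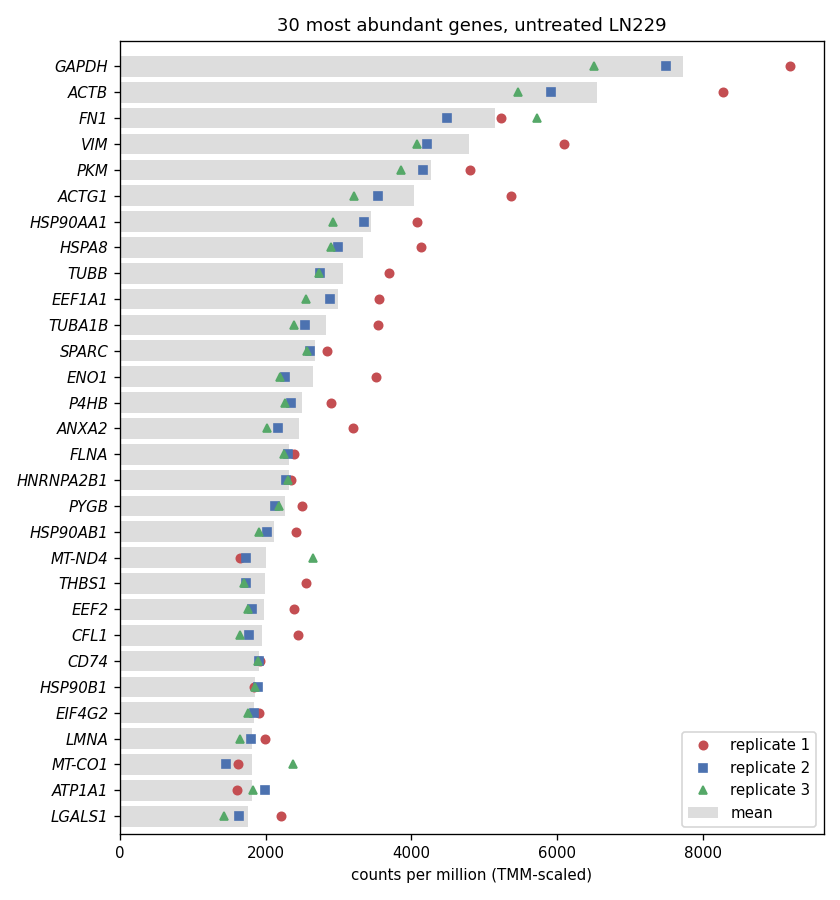
CPM (horizontal axis, from 0) of the 30 genes with the highest mean, ordered by that mean (grey bar), with each library as a coloured symbol. Replicate 1 is the highest point for GAPDH, ACTB, VIM and ACTG1, while the mitochondrial MT-ND4 and MT-CO1 are highest in replicate 3 and the 3 points of CD74 lie between 1900 and 1918.

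Translation genes were abundant as a group. All 79 cytosolic ribosomal protein genes reached 1 CPM, 72 reached 100 CPM, and the median was 412 CPM, beside a median of 2.39 CPM over all genes in the table and 21.8 CPM over protein-coding ones. RPL4 had 1648, 1237 and 1123 CPM and RPS3 1591, 1098 and 1018 CPM, both proteins of the ribosome's subunits. The summed level was 50663 CPM in replicate 1, 32073 in replicate 2 and 29802 in replicate 3. All 77 genes at or above 10 CPM were highest in replicate 1, beside 48.9% of all genes at that level. In that library the fifth with the shortest transcripts had the higher median, and the cause was not tested. Of 34 translation factors 28 reached 100 CPM, led by EEF1A1, which carries aminoacyl-tRNA to the ribosome, at 3550, 2886 and 2553 CPM, and EEF2, which drives translocation, at 2385, 1806 and 1759 CPM. A few members were low: EIF4A1, the initiation helicase, at 5.65 CPM, RPS10 at 4.22 CPM and RPL36A at 5.19 CPM. These share 48.6%, 39.4% and 8.38% of their exon length with another gene on the same strand. Protein-coding genes sharing 5 to 50% had a median of 11.1 CPM, and 23.5% of them were under 1 CPM. For those sharing under 5% the values were 24.4 CPM and 21.5%, as described further on. Whether sharing lowered the counts of these genes was not tested.

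Many of these genes begin transcription with a run of pyrimidines, the 5′ terminal oligopyrimidine (TOP) start through which growth signals control their translation. The start sites of 6 abundant members with such a start are shown to make the shared feature visible, with 10 bases before the first transcribed base and the first 5 transcribed bases in capitals (RefSeq, GRCh38.p14). On the plus strand lie RPS3 at chr11:75399508-75399536 and RPLP1 at chr15:69452808-69452836, and on the minus strand EEF1A1 at chr6:73521014-73521042, EEF2 at chr19:3985445-3985473, RPS6 at chr9:19380218-19380246 and RPLP0 at chr12:120201093-120201121.
EEF1A1: cgtgaacgttCTTTTtcgcaacgggtttg
EEF2: cgtcagcgttCTCTTccgccgtcgtcgcc
RPS3: cgagccacttCCTTTcctttcagcggagc
RPS6: gaagttggccCTCTTttccgtggcgcctc
RPLP0: ggcgcgaggcCCTTCtctcgccaggcgtc
RPLP1: ggcgcgagagCCCCTttcctcagctgccg
A C at the annotated start followed by 4 bases that are each C or T was found in 43 of the 63 ribosomal protein genes with a promoter entry (68.3%) and in 7 of 24 translation factors (29.2%), against 5.18% of all 12125 promoters. By abundance the share was 1.57% among silent genes, 4.72% between 10 and 100 CPM and 12.9% (8 of 62) at or above 1000 CPM. The highest class includes EEF1A1, EEF2 and RPS3 shown above, so its share repeats part of the result for the translation lists. A letter match at an annotated start is a description of that window.

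Glycolytic and respiratory genes were abundant. Of 29 glycolysis genes in the table, 25 (86.2%) reached 1 CPM and 14 (48.3%) reached 100 CPM. The shares of protein-coding genes were 77.5% and 15.6%. After GAPDH came PKM at 4805, 4161 and 3860 CPM, ENO1, the enolase, at 3508, 2262 and 2197 CPM, and LDHA, which makes lactate, at 1854, 1685 and 1539 CPM. Replicate 1 was the highest for each. LDHA stood at 1142 TPM and LDHB, the other main lactate dehydrogenase subunit, at 74.8 TPM. The glucose transporter SLC2A1 had a mean of 246.9 ± 22.6 CPM, the liver-type transporter SLC2A2 was silent, and the hexokinases HK1 and HK2 stood at 130 and 39.1 TPM. ALDOA, the aldolase, was listed at 10.5 CPM and shares 42.3% of its exon length with a same-strand gene. All 13 protein genes of the mitochondrial genome reached 10 CPM, and MT-ND4, a complex I subunit, had 1648, 1731 and 2649 CPM. MT-CO1, a complex IV subunit, had 1617, 1455 and 2372 CPM, so both were highest in replicate 3, where mitochondrial genes took 1.38% of the counts against 0.924% and 0.865%. The nuclear respiratory genes had a median of 99.8 CPM over 46 members, with ATP5F1B, the catalytic ATP synthase beta subunit, at 1137, 920.0 and 832.9 CPM. Of these 44 were at or above 10 CPM and 42 of the 44 were highest in replicate 1, beside 48.9% of all genes at that level.

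**Figure D4:**
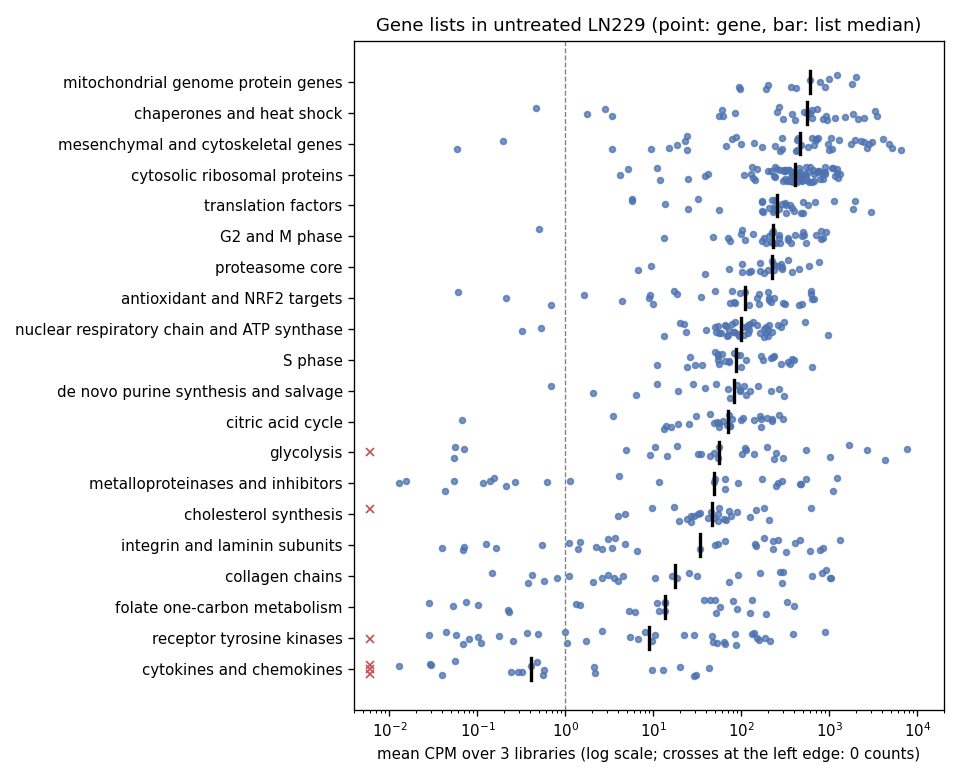
Mean CPM of the members of 20 gene lists (horizontal axis, log scale; dashed line at 1 CPM), with each list's median as a black bar and genes without a count as red crosses at the left edge. The lists are ordered by median, from 600 CPM for mitochondrial genome protein genes down to 0.403 CPM for cytokines and chemokines.

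Folate metabolism, the pathway that takes up and releases formate, was covered by 27 genes in the table. Of these 21 (77.8%) reached 1 CPM, beside 77.5% of all protein-coding genes in the table, and the median was 13.6 CPM, under the 21.8 CPM of protein-coding genes. TYMS, which makes thymidylate, had 512.1, 363.7 and 318.9 CPM. SHMT2, the mitochondrial serine hydroxymethyltransferase, had 417.9, 283.8 and 289.7 CPM, and MTHFD1, the cytosolic trifunctional enzyme that can ligate formate to folate, had 213.0, 190.8 and 169.6 CPM. All were highest in replicate 1. Per length, SHMT2 stood at 284 TPM and its cytosolic counterpart SHMT1 at 33.3 TPM. The mitochondrial enzymes MTHFD2 and MTHFD1L, of which the second releases formate, stood at 106 and 74.2 TPM, and MTHFD2L at 2.68 TPM. The carriers SLC19A1, SLC46A1 and SLC25A32 had 50.3, 5.32 and 1.31 CPM, the last with 69.7% of its exon length shared on the same strand. The retaining and processing enzymes FPGS and GGH had 37.5 and 131.0 CPM. MTR and MTRR, which pass the methyl group to methionine, had 81.2 and 51.6 CPM. Of the formyl-folate dehydrogenases, which oxidise the formyl group, the cytosolic ALDH1L1 was at 0.0279 CPM and the mitochondrial ALDH1L2 at 10.9 CPM. The glycine cleavage genes GLDC and GCSH were at 13.7 and 1.48 CPM and AMT at 0.0525 CPM, although DLD, shared with other dehydrogenases, was at 165.8 CPM. MTFMT, which formylates mitochondrial initiator tRNA, had 13.4 CPM, and FOLR1, FTCD, SARDH and DMGDH were each under 1 CPM, from 0.0746 for DMGDH to 0.226 for FOLR1. TYMS, MTHFD2, MTHFD1 and SHMT2 have 47%, 33%, 11% and 10% of their exons under a gene on the opposite strand, and the strand setting of the counting is not given in the sources used here.

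Amino acid supply was led by SLC7A5 and SLC3A2, the subunits of the large neutral amino acid exchanger. SLC7A5 had 1263, 1593 and 1333 CPM and SLC3A2 540.4, 507.1 and 449.1 CPM, with no common order of the libraries. The serine synthesis enzymes PHGDH, PSAT1 and PSPH stood at 100, 183 and 54.9 TPM. ASNS, asparagine synthetase, was listed at 1.44 CPM and shares 44.6% of its exons on the same strand. In lipid synthesis FASN, the fatty acid synthase, had 476.9, 551.5 and 651.3 CPM and was lowest in replicate 1, and 24 of 28 cholesterol genes reached 10 CPM. FABP5, a fatty acid binding protein with 13 pseudogene copies in the annotation, had no count in any library.

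The proliferative programme was expressed throughout. All 30 S phase genes and 34 of 35 G2 and M phase genes reached 10 CPM, with medians of 86.5 and 227 CPM. TOP2A, the topoisomerase that untangles chromosomes, had 764.7, 861.0 and 901.2 CPM, and MKI67, the antigen behind the Ki-67 stain, 596.6, 726.7 and 776.2 CPM. Both were lowest in replicate 1. RRM2, a ribonucleotide reductase subunit, had 745.6, 602.8 and 560.4 CPM and was highest there. The exception in the mitotic list was NUSAP1, a spindle protein, at 0.499 CPM, with 62.2% of its exon length shared with a same-strand gene. CCND1, the G1 cyclin D1, had 922.8 ± 126 CPM, and its partners CDK4 and CDK6 stood at 527 and 65.6 TPM.

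Of the 4 INK4 inhibitors of these kinases, 3 were silent or held a single count. CDKN2A (ENSG00000147889), which encodes p16 and ARF, had 1 count in replicate 1 and 0 in the others. CDKN2B, which encodes p15, had 1 count in replicate 3 and 0 in the others, and CDKN2C, which encodes p18, had none. CDKN2D, which encodes p19, had 28.0, 18.1 and 18.5 CPM. CDKN1A, the p21 inhibitor, had 104.7, 89.3 and 78.7 CPM, so the low values did not extend to every inhibitor of the cyclin-dependent kinases. On chromosome 9 of GRCh38, CDKN2A occupies 21967753 to 21995301 and CDKN2B 22002903 to 22009363 in GENCODE 29. MTAP, a methylthioadenosine phosphorylase gene at 21802543 to 21937651, had 1881, 2621 and 2453 counts (97.4 ± 10.4 CPM). On the far sides, KLHL9 at 21329671 to 21335380 had 71.2 ± 13.5 CPM and DMRTA1 at 22446841 to 22455740 had 10.9 ± 0.409 CPM. Only IFNE of the type I interferon genes between KLHL9 and MTAP has a row, at 1.04 CPM. Counts do not tell a deleted gene from one that is not transcribed.

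Of the 26 glioblastoma drivers and suppressors on the list, 23 (88.5%) reached 1 CPM, beside 77.5% of protein-coding genes, and the median was 63.7 CPM. MDM2, a ubiquitin ligase, had 175.3, 191.9 and 183.9 CPM, and its relative MDM4 had 39.6, 35.8 and 46.3 CPM. The libraries lay close together for MDM2. RB1 had 109.2 CPM, NF1 28.7 CPM, PIK3CA and PIK3R1 42.8 and 46.8 CPM, BRAF 27.8 CPM and PTPN11, a phosphatase in RAS signalling, 286.5 CPM. The chromatin genes ATRX, DAXX and H3-3A had 75.5, 88.2 and 9.92 CPM, with ATRX, a long transcript, lowest in replicate 1 at 44.4 CPM against 88.9 and 93.0. IDH1 and IDH2 had 73.5 and 55.04 CPM, and TERT, the telomerase catalytic subunit, 6.03, 4.19 and 6.28 CPM. The others were QKI at 148.6, STAG2 at 144.6, SPRY2 at 140.3, CIC at 116.3, FUBP1 at 196.5 and LZTR1 at 24.4 CPM. Expression gives no information on mutations in these genes.

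MGMT (ENSG00000170430), which removes alkyl groups from guanine and is commonly silenced by promoter methylation in glioblastoma, had 0 counts in all 3 libraries. It was the only silent member of the driver list. In the DNA methylation and repair list 20 of 22 genes reached 10 CPM, beside 9421 of the 15224 protein-coding genes. The maintenance methyltransferase DNMT1 had 353.1, 356.8 and 358.0 CPM and PARP1 422.6 CPM. The MGMT promoter is shown beside that of an abundant gene of similar composition, FN1, and of an abundant gene with few CpG sites, SPARC, which encodes a matrix protein. The 150 bases before the start and the first transcribed base are given, with each CG in capitals (RefSeq, GRCh38.p14). MGMT lies at chr10:129467091-129467241 on the plus strand, FN1 at chr2:215436068-215436218 on the minus strand and SPARC at chr5:151686915-151687065 on the minus strand.
MGMT: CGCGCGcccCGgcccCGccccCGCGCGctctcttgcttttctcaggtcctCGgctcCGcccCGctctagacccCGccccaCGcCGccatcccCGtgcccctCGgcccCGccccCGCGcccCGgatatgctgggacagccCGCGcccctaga
FN1: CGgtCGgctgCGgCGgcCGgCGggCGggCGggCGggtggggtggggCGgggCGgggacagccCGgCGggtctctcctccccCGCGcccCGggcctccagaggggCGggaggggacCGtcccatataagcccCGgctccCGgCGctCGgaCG
SPARC: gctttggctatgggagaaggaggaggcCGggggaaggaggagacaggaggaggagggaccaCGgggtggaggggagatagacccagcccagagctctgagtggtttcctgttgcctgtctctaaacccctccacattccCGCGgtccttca
These stretches held 22 CG sites in MGMT, 23 in FN1 and 4 in SPARC, although FN1 had 5149 CPM, SPARC 2672 CPM and MGMT none. Methylation was not measured here.

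Across all 12125 protein-coding genes with a promoter entry, CpG content was higher in the more abundant classes. The median observed over expected CpG ratio was 0.351 in silent genes, 0.493 under 0.1 CPM, 0.635 from 0.1 to 1 CPM, 0.771 from 1 to 10 CPM and 0.854 from 10 to 100 CPM. It was 0.887 from 100 to 1000 CPM and 0.865 at or above 1000 CPM. A ratio of at least 0.6 was found in 32.5% of 382 silent genes, in 90.3% of the 62 genes at or above 1000 CPM and in 77.1% of all entries, so MGMT, whose 300 bases had a ratio of 1.06, was in the minority of its class. GGGCGG, the letters of an Sp1 site, was present on either strand in 40.8% of silent promoters and 82.3% of those at or above 1000 CPM, against 66.7% of all entries. TATAAA on either strand took the opposite course over most classes, from 14.7% in silent genes to 4.48% between 10 and 100 CPM, and stood at 12.9% (8 of 62) in the highest class, against 6.58% of all entries. These shares describe the letters in the windows.

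Among cell identity genes, SOX10 and NES were near 1000 CPM, while the marker lists around them were mixed. SOX10, a transcription factor of oligodendrocyte precursors and neural crest, had 975.8, 983.0 and 998.4 CPM, and the libraries differed by little (CV 1.17%). In bulk RNA, a high level in few cells and a low level in many cannot be told apart. NES, the progenitor filament nestin, had 944.8, 972.9 and 869.1 CPM. SOX2, a stem cell factor, had 69.6, 78.8 and 86.8 CPM, and FABP7, a radial glia lipid binding protein, 45.6 ± 3.56 CPM. Among 15 oligodendrocyte markers with a row, 10 (66.7%) reached 1 CPM, beside 77.5% of protein-coding genes, and the median was 9.03 CPM. CSPG4, the NG2 proteoglycan, had 259.4, 367.7 and 358.2 CPM and was lowest in replicate 1. MAG, a myelin adhesion protein, stood at 42.2 CPM, OLIG2, the lineage factor, at 8.14 CPM, and MBP, the main myelin basic protein, at 0.115 CPM. The list was therefore mixed, with several members high and a major protein of mature myelin near 0.

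Astrocyte markers were mostly low. GFAP, the astrocyte filament, had 0.320, 0.190 and 0.173 CPM. Of 17 markers with a row, 9 (52.9%) reached 1 CPM, beside 77.5% of protein-coding genes, and 2, GJB6 and GPR37L1, were silent. SLC1A2 and SLC1A3, the glial glutamate transporters, had 0.0857 and 1.20 CPM. S100B, a glial calcium-binding protein, had 81.9, 175.0 and 126.7 CPM, with replicate 1 the lowest, and was also the highest of the list per length at 378 TPM. GJA1, a gap junction protein, had 56.0 ± 2.72 CPM. The neuron list had 7 of 15 markers (46.7%) at or above 1 CPM, with a median of 0.476 CPM. It was led by the deubiquitinase UCHL1 at 109.2 ± 27.6 CPM. Of the 15 oligodendrocyte markers with a row 4 reached 100 CPM, SOX10 and CSPG4 among them. Of the 17 astrocyte markers 1 did, S100B, and GFAP had a mean of 0.228 CPM.

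Markers of immune cells were under 1 CPM, while some of fibroblasts, pericytes and epithelia were higher. All 9 microglia and macrophage markers in the table were under 1 CPM and their summed level was 1.42, 1.26 and 1.60 CPM in replicates 1 to 3, with LYZ, lysozyme, the highest at 0.440 CPM and PTPRC at 0.0865 CPM. Of the lymphocyte list the table held CD4 and CD79A, with 1 count in all. Endothelial PECAM1 and KDR had 0.0586 and 0.0686 CPM, and the highest of that list was PDGFRB, a pericyte and fibroblast receptor, at 5.42 CPM. FLT1, a receptor tyrosine kinase like KDR, was not on that list and had 140.2 ± 30.7 CPM. Among 10 fibroblast markers 7 (70%) reached 1 CPM, beside 77.5% of protein-coding genes, and none reached 100 CPM. Their median was 3.92 CPM. LUM, a matrix proteoglycan, had 35.5 CPM, and COL1A1 and COL1A2, the type I collagen chains, 4.53 and 3.09 CPM. In the epithelial list CDH1 and EPCAM, surface adhesion proteins of epithelia, were silent, although KRT18 and KRT8, keratins of simple epithelia with 67 and 50 pseudogene copies, had 139.3 and 18.4 CPM.

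**Figure D5:**
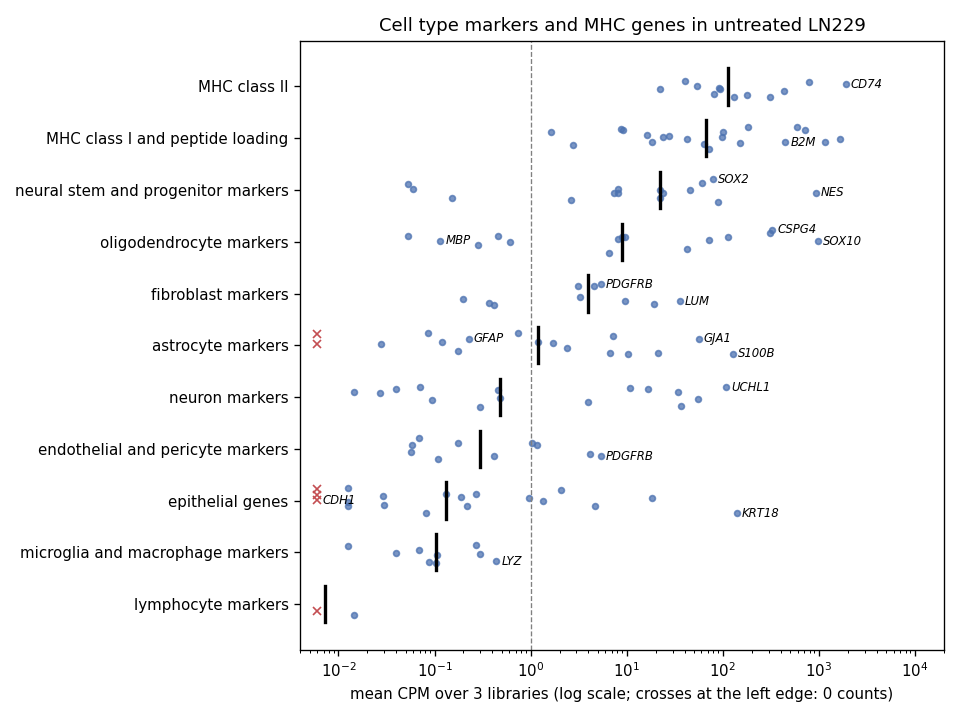
Mean CPM over the 3 libraries (horizontal axis, log scale; dashed line at 1 CPM) of the members of the MHC and cell type marker lists, with the list median as a black bar and genes without a count as red crosses. All MHC class II points lie above 20 CPM, SOX10 and NES near 1000 CPM, GFAP at 0.228 CPM, and no microglia or lymphocyte point reaches 1 CPM.

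The MHC class II genes, which present antigen to helper T cells and are usually limited to immune cells unless induced by interferon gamma, were expressed together. All 12 members of the list reached 10 CPM and the median was 112 CPM, with the immune cell markers above under 1 CPM. CD74 (ENSG00000019582), the invariant chain that guides class II molecules, had 1918, 1908 and 1900 CPM. HLA-DRA, the alpha chain of HLA-DR, had 729.5, 868.5 and 794.8 CPM, and HLA-DRB1, its beta chain, 479.4, 412.7 and 407.5 CPM. CD74 had the third smallest CV (0.473%) of all genes at or above 100 CPM. The median CV of the list was 9.90%, beside 12.4% over all genes at or above 10 CPM. CIITA, the coactivator required for class II transcription, had 114.1, 145.9 and 133.5 CPM. The other classical chains HLA-DPA1, HLA-DPB1, HLA-DQB1, HLA-DRB5 and HLA-DQA1 had 312.7, 177.9, 93.2, 81.0 and 53.9 CPM. The peptide editors HLA-DMA, HLA-DMB and HLA-DOA had 91.3, 22.3 and 40.5 CPM. HLA-DOB, the partner of HLA-DOA, and HLA-DQA2 were not on the list and stood at 1.58 and 0.0635 CPM. HLA-DRB1 and HLA-DRB5 are close copies, as are other HLA genes that differ between people, so the split of reads between them is uncertain.

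Class II promoters are read through an X box and a Y box, bound by the RFX and NF-Y factors to which CIITA attaches. The letters GATTGG (the Y box core) and ACNGATG (an X box core) were searched on both strands of the 300 bases around each start. Both were present in 5 of the 10 class II genes with an entry, against 1.11% of all 12125 promoters. GATTGG alone was in 7 of 10 (19.4% of all) and ACNGATG in 6 of 10 (5.25% of all). The 4 most abundant genes with both are shown for the spacing of the boxes, as the 170 bases before the start and the first transcribed base, with matches to either motif on either strand in capitals (RefSeq, GRCh38.p14, all on the minus strand). They are HLA-DRB1 at chr6:32589848-32590018, HLA-DQB1 at chr6:32666657-32666827, HLA-DMA at chr6:32953097-32953267 and HLA-DRB5 at chr6:32530287-32530457.
HLA-DRB1: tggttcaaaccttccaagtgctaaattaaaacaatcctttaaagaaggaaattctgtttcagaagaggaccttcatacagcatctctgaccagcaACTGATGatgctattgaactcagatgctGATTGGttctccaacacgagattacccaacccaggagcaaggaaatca
HLA-DQB1: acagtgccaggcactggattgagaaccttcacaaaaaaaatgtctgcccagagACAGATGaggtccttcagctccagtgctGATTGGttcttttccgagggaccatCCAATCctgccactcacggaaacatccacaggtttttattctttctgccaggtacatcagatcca
HLA-DMA: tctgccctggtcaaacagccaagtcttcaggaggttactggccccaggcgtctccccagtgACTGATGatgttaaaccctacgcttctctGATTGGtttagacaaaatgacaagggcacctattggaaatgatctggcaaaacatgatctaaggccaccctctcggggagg
HLA-DRB5: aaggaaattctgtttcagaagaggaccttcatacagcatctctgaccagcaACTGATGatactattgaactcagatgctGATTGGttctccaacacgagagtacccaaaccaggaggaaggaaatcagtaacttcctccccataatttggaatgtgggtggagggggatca
In each the X box letters came first and the Y box letters closer to the start. No binding was measured.

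MHC class I and its loading machinery were also present, with all 20 members at or above 1 CPM. B2M, the shared light chain, had 476.9, 444.4 and 423.6 CPM, and was highest in replicate 1. HLA-B and HLA-C had 98.2 and 100.1 CPM. The lowest was HLA-G at 1.64 CPM. In the list of nucleic acid sensors and interferon response, 24 of 29 genes (82.8%) reached 1 CPM, beside 77.5% of protein-coding genes. In that list 13 reached 10 CPM, beside 9421 of the 15224 protein-coding genes. The median was 7.46 CPM, beside 21.8 CPM. Of interferon-induced genes IFI6 had 13.8 CPM, IFIT3 12.1 CPM, MX1 3.57 CPM, ISG15 2.39 CPM and IFI27 0.206 CPM, and the interferon-induced chemokines CXCL10 and CXCL11 were silent. Of the sensing genes, MAVS, the adaptor for RNA sensing, had 213.7 ± 34.0 CPM, STING1, the adaptor for DNA sensing, 16.7 CPM, and CGAS, its upstream DNA sensor, 0.0271 CPM.

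Of 5 Toll-like receptors with a row, TLR4, the receptor for bacterial lipopolysaccharide, had 67.0, 93.2 and 94.2 CPM and was the highest per length, at 27.2 TPM. Its co-receptors CD14 and LY96 stood at 0.273 and 0.468 CPM. TLR6, TLR3, TLR1 and TLR5 had 17.3, 5.19, 1.14 and 0.561 CPM. Downstream, the adaptors MYD88 and TICAM1 had 42.4 and 14.9 CPM, the kinases IRAK1 and IRAK4 575.1 and 27.4 CPM, TRAF6 16.0 CPM, and the IKK subunits CHUK, IKBKB and IKBKG 53.0, 39.0 and 10.4 CPM. The NF-kB subunits RELA, NFKB1, NFKB2, RELB and REL had 130.5, 87.8, 30.04, 7.41 and 5.86 CPM, and the feedback inhibitors NFKBIA and TNFAIP3 19.6 and 4.997 CPM. REL had 1.05 CPM in replicate 1 against 8.30 and 8.23, with 43.3% of its exons shared on the same strand. Of 23 cytokines and chemokines 8 (34.8%) reached 1 CPM, beside 77.5% of protein-coding genes. IL11 had 69.2, 22.8 and 38.3 CPM and the monocyte attractant CCL2 29.71, 28.34 and 34.36 CPM. Per length these stood at 66.5 and 65.5 TPM, after MIF, the macrophage migration inhibitory factor, at 107 TPM. IL6 stood at 0.240 CPM. Of checkpoint molecules, NT5E, which makes adenosine, had 473.9 CPM, CD276 149.9 CPM and CD274, the ligand PD-L1, 3.35 CPM.

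Receptor tyrosine kinases, which pass growth signals, were unevenly used: of 38 with a row, 25 (65.8%) reached 1 CPM and 8 (21.1%) reached 100 CPM. The shares of protein-coding genes were 77.5% and 15.6%, and the median of the receptor list was 8.81 CPM. AXL, a receptor tied to mesenchymal states, had 1017, 840.4 and 806.9 CPM. ERBB3, a neuregulin receptor, had 224.2, 502.5 and 429.4 CPM, with replicate 1 well under the others. EGFR, often amplified in glioblastoma, had 83.8, 88.1 and 89.0 CPM. Per length AXL stood at 721 TPM, ERBB3 at 183 TPM and EGFR at 29.3 TPM. ERBB2 and MET had 210.5 and 185.5 CPM, EPHA2, FLT1, DDR1 and DDR2 158.4, 140.2, 152.4 and 133.8 CPM, and IGF1R 85.2 CPM. FGFR1, EPHA3, TYRO3, EPHB2 and EPHB4 lay between 46.8 CPM for EPHB4 and 64.5 CPM for EPHA3, FGFR4 had 29.3 CPM, EPHA4 22.0 CPM and FGFR3 10.4 CPM. PDGFRA, a mark of the precursor state, had 4.89, 12.6 and 11.3 CPM, PDGFRB 5.42, INSR 8.04, ROR1 6.67, EPHB1 2.60, NTRK2 1.71 and TIE1 1.04 CPM. Under 1 CPM were KIT at 0.996, ERBB4 at 0.486, FGFR2 at 0.364, ALK at 0.257, TEK at 0.175, MST1R at 0.109, CSF1R at 0.103, MERTK at 0.0797, KDR at 0.0686, NTRK3 at 0.0441 and EPHA1 at 0.0279, and FLT4 was silent. Among growth factors TGFA, an EGFR ligand, and LIF had 310.8 and 271.1 CPM.

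Mesenchymal and cytoskeletal genes held 5.07% of all counts, with 34 of 46 at or above 100 CPM and a median of 459 CPM. Their summed level was 61291 CPM in replicate 1, 46447 in replicate 2 and 45293 in replicate 3. CDH2, the mesenchymal cadherin, had 281.2, 304.2 and 276.5 CPM, in contrast to the absence of CDH1 counts. Low members were THY1 and MYL9 at 0.196 and 0.0594 CPM. The transition factors FOSL1, ZEB2, ZEB1 and TWIST1 stood at 1038, 14.1, 28.2 and 58.3 TPM. Of the matrix genes, TNC, tenascin-C, had 1255, 1277 and 1274 CPM, and COL6A2 and COL4A2, chains of type VI and type IV collagen, had 1047 ± 369 and 1024 ± 68.4 CPM. COL6A2 was highest in replicate 1 at 1472 CPM against 813.8 and 855.3. COL11A1 had 564.3, 980.5 and 910.8 CPM with replicate 1 lowest, and COL3A1 had 0.414 CPM. The integrin subunit ITGA3 stood at 569 TPM and ITGB1 at 598 TPM. LOX, a collagen cross-linker, had 1 count in replicate 2 and none elsewhere.

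The metalloproteinases, which cut the matrix, and their inhibitors spanned the whole range: of 27 genes 10 were under 1 CPM, 8 between 1 and 100 CPM and 9 at or above 100 CPM. MMP2, gelatinase A, had 1095, 1338 and 1248 CPM, and MMP14, the membrane protease that activates it, 251.0, 242.5 and 249.3 CPM. TIMP3, TIMP1 and TIMP2, their inhibitors, had 1093, 538.1 and 472.1 CPM. Per length TIMP1 led at 1460 TPM, before MMP2 at 1053 and TIMP3 at 1007 TPM. MMP16, MMP15 and MMP17, other membrane types, had 288.7, 49.98 and 48.7 CPM, and BSG, an inducer of such proteases, 458.6 CPM. The sheddases ADAM9, ADAM10, ADAM12 and ADAM17 had 263.6, 173.6, 91.0 and 65.9 CPM, ADAMTS1 65.7 CPM and the inhibitor RECK 11.6 CPM. MMP11 and MMP24 had 4.03 and 1.116 CPM. MMP9, gelatinase B, stood at 0.0543 CPM, and MMP10, MMP3, MMP8, MMP1, MMP19, MMP25, MMP13, MMP7 and TIMP4 were also under 1 CPM, from 0.624 for MMP10 to 0.0127 for TIMP4. In the plasminogen system PLAT, the tissue activator, had 692.0, 534.1 and 595.6 CPM and PLAU, the urokinase activator, 0.411, 0.152 and 0.347 CPM. SERPINE2, protease nexin-1, had 1609, 1792 and 1678 CPM, and was lowest in replicate 1.

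Germline and embryonic genes gave a further contrast. POU5F1 and TDGF1, pluripotency genes, were silent, while the cancer-testis genes MAGEA6, MAGEA3, MAGEA1 and MAGEA12 had 87.5, 74.4, 62.6 and 61.8 CPM, and MAGEA6 and MAGEA3 are near-identical copies whose reads may be split. PRAME, another tumour antigen, had 0.0289 CPM. HMGA1 and HMGA2, chromatin proteins of embryonic cells, stood at 1863 and 15.5 TPM. HOX genes of all 4 clusters were detected, with medians from 1.85 CPM in HOXA to 12.4 CPM in HOXC, and HOXB7 and HOXC10 at 58.0 and 39.5 CPM. Among noncoding transcripts NORAD had 340.8, 419.3 and 433.6 CPM, NEAT1, the paraspeckle scaffold, 250.3, 312.6 and 549.1 CPM, TUG1 279.3 CPM, SNHG29 228.3 CPM, FGD5-AS1 198.7 CPM and MALAT1 128.1, 143.9 and 277.7 CPM. NEAT1 and MALAT1, both retained in the nucleus, were highest in replicate 3. LINC00511 and SNHG5 had 176.8 and 135.8 CPM. MEG3, an imprinted noncoding gene, stood at 0.0424 CPM. Of other gene types the mitochondrial ribosomal RNA MT-RNR2 had the most counts, with 664.1 CPM in these libraries made for mRNA. It was followed by GPX1 (typed as a polymorphic pseudogene in GENCODE 29) at 206.8 CPM, the second mitochondrial ribosomal RNA MT-RNR1 at 150.8 CPM, MTATP6P1 at 124.1 CPM and FAM86DP at 85.1 CPM.

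Silent and trace genes also lay side by side. The longest run of neighbouring protein-coding genes of the table under 0.1 CPM held 9 genes on chromosome 2, from UGT1A8 to MROH2A (233617645 to 233833423), all at 0, which comprise the UGT1A glucuronidation genes. UGT1A genes share their last exons, with 49.9% of UGT1A1 covered on the same strand. A run of 7 lay on chromosome 21 from TFF3 to PDE9A (42311667 to 42775509), with 17 counts in all, and includes the trefoil peptides of mucosal surfaces. Another of 7 on chromosome 11 ran from FXYD6 to MPZL2 (117836976 to 118264536) with 18 counts. On chromosome 19 the 6 kallikrein protease genes from KLK7 to KLK13 (50976482 to 51065114) had 1 count together. On chromosome 6 the 5 histone genes from H3C1 to H2BC3 (26020490 to 26043657) had 24 counts, in libraries from an mRNA kit. Coordinates are GRCh38 as in GENCODE 29. Rows are lacking for 1 to 3 annotated coding genes inside each span.

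Some low values stood beside a property of the annotation. Protein-coding genes with under 5% of their exon length shared with another gene on the same strand had a median of 24.4 CPM over 13649 genes. The median was 11.1 CPM for 5 to 50% sharing (1285 genes), 0.481 CPM for 50 to 90% (252 genes) and 0.182 CPM for 90% or more (38 genes). In the same order, 21.5%, 23.5%, 63.9% and 86.8% of these classes were under 1 CPM, so that share differed little below 50% sharing. SRXN1, an antioxidant reductase, at 0.329 TPM with 85.0% shared, NDUFV2, a complex I subunit, at 0.506 TPM with 28.4% and PRC1, a spindle midzone protein, at 10.1 TPM with 57.6% were low beside their lists' medians of 157, 168 and 254 TPM. How the counting treated reads in shared exons is not given in the sources used here, and its part in these values was not tested.

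Over the 9639 genes of at least 10 CPM kept for the spread, the median CV was 12.4%, 574 genes (5.96%) exceeded 30% and 14 exceeded 50%. Replicate 1 was the highest in 48.9% and the lowest in 41.0% of all these genes. Among those above 30% the shares were 50.7% (291 genes) and 47.9% (275 genes). PTHLH, a parathyroid hormone-like peptide, had 45.7, 13.6 and 18.6 CPM, the largest CV (66.4%) of a protein-coding gene. SLC26A2, a sulfate transporter, had 260.1, 908.5 and 706.0 CPM, and PTCH1, the Hedgehog receptor, 27.5, 106.1 and 101.01 CPM. The first was highest and the other 2 were lowest in replicate 1. Also among the 12 largest were IGFBP5, IL11, FSTL3, RAB3B, TENM1 and NFAT5, the pseudogene RPSAP52 and the lincRNAs ENSG00000263731 and ENSG00000268205, with CVs from 53.4% for NFAT5 to 110.4% for ENSG00000263731. At the other end, LIMA1, an actin-binding protein, had 173.9, 174.3 and 173.8 CPM (CV 0.148%), and SF3A1, a splicing factor, 271.9, 273.3 and 272.2 CPM. With CD74 they had the smallest CVs at or above 100 CPM, followed by ZC3H18, RAB14, CSNK1D, MSN and DNMT1 at 0.518% to 0.725%. Over so many genes some will have 3 nearly equal values, and 3 libraries give little precision on any single CV.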

How the data were processed

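The authors deposited 1 table of whole-number read counts per Ensembl gene, with no normalization; only the 3 untreated columns were used. Per the submitters' processing notes, bcl2fastq 2.20.0.422, STAR 2.7.4a and GRCh38 were named, without roles. The counting program, its strand setting and the row filter are not given in the sources used here.

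CPM used TMM factors (0.948, 1.016 and 1.038) from edgeR 4.0.16 in R 4.3.3, computed among the 3 libraries. The common coefficient of variation used the 13997 genes kept by filterByExpr, with an intercept only. TPM used exon lengths of GENCODE 29, which held 23252 of the genes (98.0%); symbols matched 23619. DESeq2 1.42.0 gave alternative size factors. Promoters are RefSeq windows of 250 bases before to 50 after the start, matched by symbol and chromosome for 12125 of 15222 protein-coding genes (79.7%).

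No groups were compared and no test was made. Members and the 57 gene lists and 34 families were chosen with earlier results of these data known. Named genes were the 30 highest by CPM, 15 by TPM, 8 noncoding, 5 of other types, the extremes and zeros of each list, the 12 largest and 8 smallest CVs, and the members of 5 lists: drivers, receptor kinases, folate, Toll-like receptors and metalloproteinases. A few further genes were chosen after their values were seen. Some members of these lists are not reported here.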

Additional observations from a re-analysis of the deposited data

How the results depend on the processing

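The spread depended mainly on the choice of libraries. Leaving out each replicate in turn gave a median CV between 4.32% and 14.5% and a common biological coefficient of variation between 0.0678 and 0.211, both lowest without replicate 1. The genes without a count numbered 1540 to 1675 and the genes at or above 1 CPM 13075 to 13276. With at most 3 counts in each library in place of 0, 5078 genes would be called silent. The median CV was 22.1% over all genes with a count and 13.9% from 1 CPM. Library totals, DESeq2 size factors and library sizes without mitochondrial genes left every summary computed under them within 5% of its value. List medians were compared for 50 of the 57 lists, those with the lowest medians left out. Without replicate 1 they ran from 0.843 to 1.19 times their value. The median of cytosolic ribosomal proteins, for example, was 412 CPM with all 3 libraries and 347 CPM without replicate 1. The spread over the 3 libraries includes replicate 1, so it cannot judge such a shift. TPM is a different unit from CPM, and the medians in TPM were 0.336 to 4.89 times those in CPM. No paired analysis was possible because the values come from no test and from 1 group. Depth limits single genes under 0.0422 CPM.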

Other observations

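Gene families sorted by name gave further contrasts. Of 482 zinc finger genes named ZNF with a row, 445 reached 1 CPM and 1 had no count, and their median of 11.2 CPM was moderate beside the 21.8 CPM of all protein-coding genes in the table. All 78 mitochondrial ribosomal protein genes had a count and 76 reached 1 CPM, with a median of 53.9 CPM. Of 51 clustered protocadherin genes, adhesion molecules by which neurons tell each other apart, 32 (62.7%) reached 1 CPM, beside 77.5% of protein-coding genes. PCDHGC3 led them at 148.9, 339.6 and 301.9 CPM, lowest in replicate 1. Olfactory receptors had 10 rows, none at or above 1 CPM, and 10 of the 12 UDP-glucuronosyltransferase genes with a row had no count. Of 17 chemokine genes of the CC and CXC types, 9 had no count. Clustered protocadherins and UGT1A genes share exons within their clusters, so the counts of single members are uncertain.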
